A study of Homo sapiens with 12 samples.

Results

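The comparison described here sets 2 libraries of induced microglia-like cells that carry a knockout of MEF2C and received lipopolysaccharide (LPS) against 2 libraries of unedited cells that received LPS. They are 4 of the 12 libraries of the study and were chosen by the genotype and treatment in their titles, without use of any measured value. All 12 libraries come from cells differentiated from H1, an established human pluripotent stem cell line, so they share 1 genetic background. The groups are called WT LPS (unedited, LPS), KO LPS (MEF2C knockout, LPS), WT and KO (the same genotypes with the treatment given as control, 3 libraries each) and KO LPS BMS (knockout, LPS and the compound BMS265246, 2 libraries). The last group is not compared here. It enters the tests through the filter on low counts, the scaling (also that by GC content below) and its spread between libraries. The sources used here do not give the LPS dose, its duration, the kind of edit or the number of knockout clones, so an effect of the edit and one of a single clone cannot be told apart. The titles number the libraries of a group as biological replicates and do not say whether these were separate differentiations. The p-values therefore measure the spread between these libraries, which may in part be technical.

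Microglia are the resident macrophages of the brain. LPS, a component of the outer wall of Gram-negative bacteria, binds TLR4 with CD14 and MD-2, and signals through MYD88 to NF-kB and MAP kinases and through TRIF to IRF3 and interferon beta, which in turn raises interferon-stimulated genes through STAT proteins and IRF9. MEF2C is a MADS-box transcription factor that binds A/T-rich sites, is held in check by class IIa histone deacetylases, and is known in microglia as a factor that restrains their inflammatory response.

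Levels are CPM (read counts scaled to a common library size, with TMM factors), and differences are log2 fold changes of KO LPS over WT LPS with their standard error. A gene is said to have risen, fallen or been called where edgeR's quasi-likelihood test gave a p under 0.05 after Benjamini-Hochberg adjustment over all 16022 genes tested. The 4 LPS libraries held 15881677 to 17639136 counts, and a count of 0 allows 3 counts, or 0.188 to 0.205 CPM, for counting error only. With 2 libraries against 2, an exact permutation test of 1 gene cannot give a p below 0.333, so the calls rest on a spread borrowed from all 12 libraries.

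The 4 LPS libraries differed by the GC content of the transcripts, and this touches every count below. Across 10427 genes with at least 5 CPM, the GC percent of a gene correlated with its log2 fold change (r = 0.46 across genes, which are not replicates), against 0.06 for KO over WT without LPS. The same trend separated replicates: r was 0.65 for KO LPS replicate 2 minus replicate 1 and -0.57 for WT LPS replicate 2 minus replicate 1. Between single libraries of the 2 genotypes it ran from 0.14 for both replicates numbered 1 to 0.63 for both numbered 2. The pair of KO LPS libraries also differed more than any other pair, with a chi-square per degree of freedom of 11.5, against 7.18 for WT LPS and 2.07 to 5.08 elsewhere. Of genes in the lowest of 5 equal bins of GC content, 159 rose and 890 fell, whereas in the highest bin 1088 rose and 59 fell. A second fit removed a smooth GC trend from each library (called the GC offset here, and chosen after seeing the data). With it these counts were 389 and 432 in the lowest bin and 492 and 438 in the highest. Counts over all genes and over most gene lists with LPS are therefore given from both fits, whereas list counts without LPS come from the fit without the offset. The part of the GC trend in any single gene's difference was not tested.

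**Figure D1:**
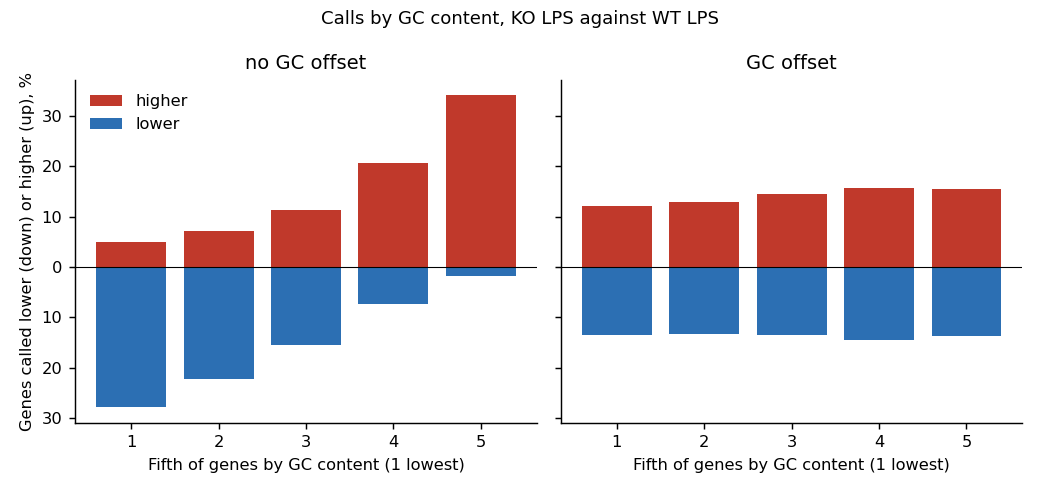
Share of genes called higher (red, upward) or lower (blue, downward) in KO LPS than in WT LPS, in percent of the genes of each of 5 equal bins of GC content, without the GC offset (left) and with it (right). On the left 1088 genes rose in the bin of highest GC content and 59 fell, and on the right the same bin has 492 and 438.

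MEF2C itself (ENSG00000081189, chromosome 5, 88717117 to 88904257 on the minus strand of GRCh38) was read at 49.6 and 51.6 CPM in WT LPS and at 45.9 and 46.8 CPM in KO LPS. The groups did not overlap, but the difference of -0.13 ± 0.07 did not pass the test (edgeR adjusted p = 0.187). It was 0.04 ± 0.06 with the GC offset (edgeR adjusted p = 0.722), so no direction is given for MEF2C with LPS. Without LPS the levels were 177 to 193 CPM in WT and 129 to 136 CPM in KO, a difference of -0.47 ± 0.05. The genotype difference in MEF2C RNA was smaller with LPS than without it (interaction 0.34 ± 0.09, edgeR adjusted p = 0.0124, and 0.48 ± 0.08 with the GC offset). Counts per gene do not show an edit of the sequence, so the RNA level neither checks nor contradicts the genotype in the labels. Of the 7 tested MEF2 family members and class IIa deacetylases, HDAC9, a deacetylase that binds MEF2 proteins, fell from 11.8 and 13.4 CPM to 8.06 and 7.11 CPM (-0.73 ± 0.14). MEF2A rose by 0.19 ± 0.07, a call that 9 of 18 alternative settings lost, and HDAC5 and HDAC7 rose without the GC offset but not with it.

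Across the 16022 genes, 4900 (30.6%) were called, of which 2501 (15.6%) rose and 2399 (15%) fell in KO LPS. The share of called genes that rose, 51%, was 44.2% with DESeq2's size factors and 60.6% with library sizes alone. With the GC offset 4450 (27.8%) were called, 2254 (14.1%) higher and 2196 (13.7%) lower. The 2 fits shared 3301 calls, or 67.4% of those without the offset, and 3300 of these had the same direction. A change of at least 2-fold was called for 900 genes, 703 higher and 197 lower, and 771 of the 900 were also called with the GC offset in the same direction. A change of at least 4-fold was called for 190 genes, 154 higher and 36 lower. The libraries of the groups did not overlap for 4887 of the 4900 called genes, and over all genes tested they did not overlap for 59.9%. Leaving out KO LPS replicate 2 left 3005 calls and leaving out WT LPS replicate 2 left 3138, both with the lone library assumed to vary like the other groups. A fit of the 4 LPS libraries alone called 2660.

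**Figure D2:**
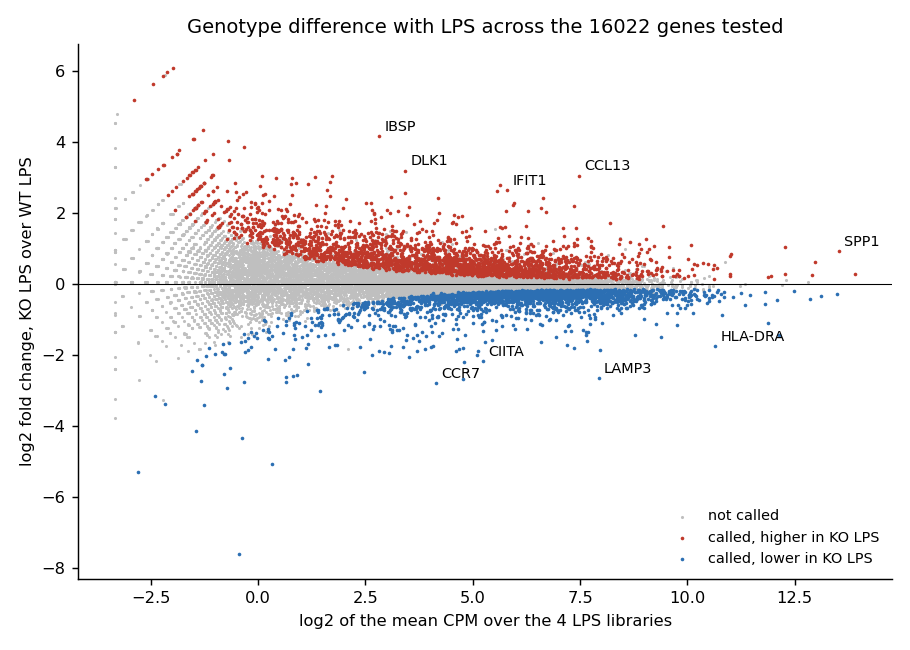
Log2 fold change of KO LPS over WT LPS against the log2 of the mean CPM over the 4 LPS libraries, 1 point per gene, with called genes in red (higher) and blue (lower). The 2501 higher and 2399 lower genes lie on both sides of 0, and the named genes include the most changed ones at 5 CPM or more.

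The largest rises among genes with a mean of at least 5 CPM included secreted and interferon-induced proteins. IBSP, a matrix sialoprotein best known from bone and low in WT LPS, stood at 0.997 and 0.5 CPM in WT LPS and at 13.3 and 13.5 CPM in KO LPS, a difference of 4.16 ± 0.26. DLK1, a membrane protein related to Notch ligands, stood at 2.39 and 1.81 against 15.4 and 23 CPM (3.19 ± 0.25). The chemokine CCL13 rose from 38.3 and 38.2 CPM to 344 and 290 CPM, 8.29-fold. F13A1, the A subunit of coagulation factor XIII and a marker of monocytes and border macrophages, rose from 3.12 and 3.13 to 18.3 and 18.5 CPM (2.56 ± 0.15). Only genes whose groups did not overlap were listed among the largest rises, so their separate libraries are a condition of the list and no support. The others among the 12 largest rises were CCL7, IFIT1, MX2, DYSF (dysferlin, a membrane repair protein), the cation channel TRPV4, HELZ2, PPP1R9A and CDA (cytidine deaminase), with log2 fold changes from 2.27 to 2.79.

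The largest falls included genes of mature antigen-presenting cells. CCR7, the receptor that guides dendritic cells to lymph nodes, fell from 32.3 and 29.1 CPM to 3.81 and 4.99 CPM, 6.99-fold (-2.80 ± 0.18). SLC38A1, a glutamine transporter, fell from 45.4 and 49 to 7.16 and 7.66 CPM (-2.67 ± 0.12). LAMP3, a lysosomal membrane protein of mature dendritic cells, fell from 422 and 418 to 64.4 and 69.6 CPM (-2.65 ± 0.13). PRRX1, a homeobox factor, fell from 9.17 and 9.51 to 1.61 and 1.71 CPM. The same condition, no overlap between the groups, applied to the listed falls. CD1E, CIITA, P2RY10, ADAM19, C1QTNF1, HSD11B1 (which regenerates active glucocorticoid), TNFAIP8L3 and WFDC21P completed the 12 largest falls, with log2 fold changes from -2.19 to -1.90. All 24 genes were called in the same direction with the GC offset and under every alternative tried.

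**Figure D3:**
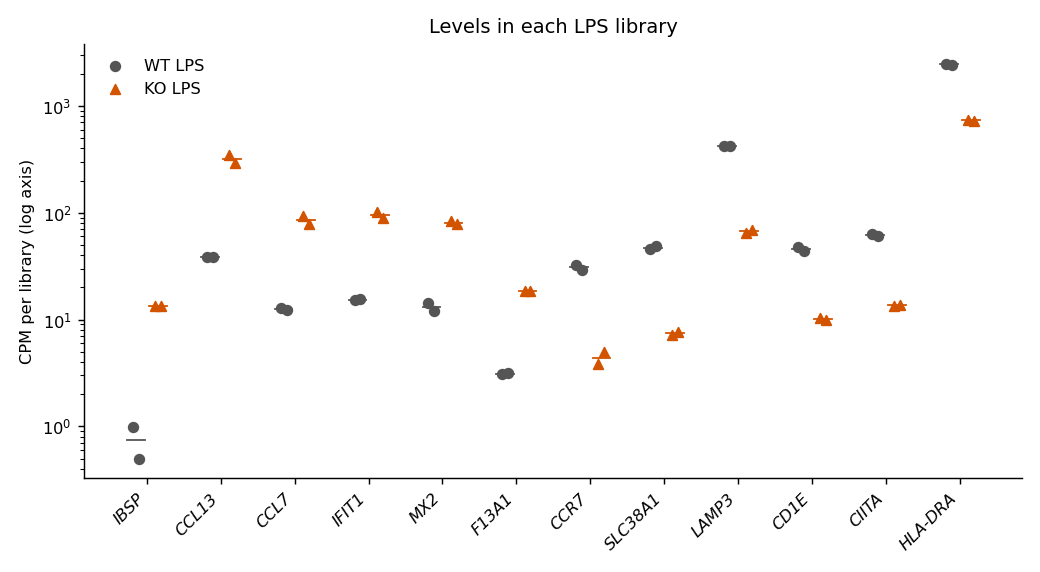
CPM of 12 genes in each LPS library on a log axis, with circles for the 2 WT LPS libraries, triangles for the 2 KO LPS libraries and a short line at each group's mean. The groups are separate in every gene, which was a condition of choice for all but HLA-DRA. CCL13 lies at 38.2 to 38.3 CPM in WT LPS and 290 to 344 CPM in KO LPS, and HLA-DRA at 2430 to 2480 and 726 to 738 CPM.

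Type I interferon-stimulated genes had the highest share of members that rose among the 53 gene lists examined. Of 47 tested members, 42 rose, 2 fell and 3 were not called, with a median of 1.06 against 0.03 over all genes tested, and with the GC offset the same 42 and 2 were called. IFIT1, which binds foreign RNA caps, rose from 15.2 and 15.4 CPM to 102 and 89.3 CPM, 6.25-fold. MX2, a dynamin-like antiviral GTPase, rose from 14.4 and 12 to 83.8 and 78.1 CPM, 6.13-fold. OAS1, which makes the activator of RNase L, rose from 25.5 and 23.8 to 81.1 and 67.4 CPM, and CMPK2, a mitochondrial nucleotide kinase, from 36.8 and 37.2 to 115 in both libraries. In all 4 genes the lowest KO LPS library was above the highest WT LPS library, for IFIT1 and MX2 as a condition of their choice. The transcription factors of the pathway moved by different amounts. STAT2 rose by 0.32 ± 0.06, whereas IRF9, its partner, was low at 3.52 to 5.68 CPM and its difference of 0.42 ± 0.23 was not called. IRF7, the amplifier of interferon genes, stood at 30.2 and 21.1 against 58.8 and 93.4 CPM, a difference of 1.57 ± 0.28 that was 0.98 with the GC offset. The 2 members that fell were LAMP3 and PLSCR1, a phospholipid scramblase (316 and 308 against 195 and 193 CPM).

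The interferon-stimulated genes were already higher in knockout cells without LPS, where 40 of the 47 rose and 1 fell (10.2% and 11.4% of all genes), with a median of 0.71. For 20 members the difference with LPS was larger than without it by the interaction test, and for 2 it was smaller. Over all genes 6.42% of interactions were called in the first direction and 5.57% in the second, and with the GC offset the members' counts were 18 and 2, against 6.04% and 6.74% of all genes. MX2 (interaction 1.04 ± 0.21), IFIT1 and OAS1 were among the 20. IFIT1 and MX2 were lower with LPS than without it in both genotypes. Without LPS IFIT1 stood at 44.8 to 72.6 CPM in WT and 173 to 175 CPM in KO. MX2 stood at 40.2 to 59.1 and 139 to 144 CPM there. The larger difference with LPS is therefore no induction by LPS in IFIT1 and MX2, and levels of the other members without LPS are not given. The group count did not rest on 1 library: 42 rose without KO LPS replicate 2 and 42 without WT LPS replicate 2.

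A short motif search was made in the promoters of these genes, because they rose together. RefSeq promoters (GRCh38.p14, 250 bases before to 50 after the start) were available for 31 of the 42 that rose. The core of the interferon-stimulated response element, searched on both strands as GAAA and GAAA with any 2 bases between, was found in 21 of these (67.7%), in 2.98% of the promoters of all genes tested and in 3.65% of all 27305 promoters. The list was made of genes known to answer interferon, so this share describes the list. The 250 bases before the start of 2 members follow, 5′ to 3′ on the strand of the gene, with matches to the core (read here on the opposite strand) in capitals. IFIT1 lies at chr10:89392373-89392622 on the plus strand and IFI44, a microtubule-associated interferon-induced gene that rose from 32 and 32.6 to 88.2 and 78 CPM, at chr1:78649539-78649788 on the plus strand.
IFIT1: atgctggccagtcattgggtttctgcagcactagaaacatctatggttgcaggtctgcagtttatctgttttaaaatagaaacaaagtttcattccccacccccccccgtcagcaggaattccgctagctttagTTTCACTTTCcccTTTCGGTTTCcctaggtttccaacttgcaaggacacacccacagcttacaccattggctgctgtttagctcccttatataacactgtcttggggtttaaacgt
IFI44: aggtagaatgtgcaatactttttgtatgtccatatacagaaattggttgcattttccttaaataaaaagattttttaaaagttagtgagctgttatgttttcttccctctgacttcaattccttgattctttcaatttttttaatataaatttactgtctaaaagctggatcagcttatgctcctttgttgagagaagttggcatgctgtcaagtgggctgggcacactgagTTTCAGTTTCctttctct
IFIT1 holds 2 matches, starting 116 and 103 bases before the start, and IFI44 holds 1, starting 18 bases before it.

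Genes known mainly as targets of interferon gamma did not move in a common direction. Of 26 tested, 8 rose, 8 fell and 10 were not called, with a median of 0.08. The share called, 61.5%, was above the 30.6% of all genes tested. In the fit with the GC offset 8 rose and 7 fell, and without WT LPS replicate 1, 5 rose. SERPING1, the C1 inhibitor, rose from 43.5 and 41.9 to 78.4 and 78.8 CPM. GBP1, a guanylate-binding GTPase that attacks pathogen vacuoles, fell from 138 and 131 to 62.6 and 58 CPM (-1.16 ± 0.08), and GBP2 from 346 and 344 to 214 and 212 CPM. The tryptophan-degrading enzyme IDO1 fell from 21.2 and 17.3 to 7.74 and 6.29 CPM. Without LPS 9 of the 26 were higher and 3 lower, against 10.2% and 11.4% of all genes. The interaction was called negative for 9 and positive for 3 (9 and 2 with the GC offset), against 5.57% and 6.42% of all genes. For GBP1 and GBP2 the difference was called as more negative than without LPS, where GBP1 was 8.65 to 10.3 CPM in WT and 11.4 to 12.1 CPM in KO.

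MHC class II genes, whose products present peptides to CD4+ T cells, fell or were not called. Of 18 tested members of the class II presentation pathway, 13 fell, none rose (0 also at an unadjusted p under 0.05 and by DESeq2) and 5 were not called, with a median of -1.06 in edgeR's fit. With the GC offset 13 fell, 12 of them the same genes. HLA-DRA fell from 2480 and 2430 CPM to 738 and 726 CPM, 3.35-fold (-1.75 ± 0.06). HLA-DPA1 fell from 666 and 616 to 241 and 236 CPM, and CD74, the invariant chain, from 5640 and 4520 to 2210 and 2530 CPM. CIITA, the coactivator that switches class II genes on, fell from 62.7 and 59.9 to 13.5 and 13.8 CPM, 4.49-fold (-2.17 ± 0.09). RFX5, a subunit of the complex that binds their promoters, fell by 0.24 ± 0.07, a call lost in 3 of 18 alternatives. The other subunits RFXANK (0.16 ± 0.10) and RFXAP (-0.08 ± 0.22) and the protease CTSS (-0.15 ± 0.06, called lower in 4 of 18 alternatives) were not called. HLA genes are close copies of each other, and reads could be divided between them by the counting. The fall was present without LPS too, with 14 of 18 members lower, against 11.4% of all genes, and a median of -1.09. For CIITA the 2 differences did not differ by the test (interaction -0.12), whereas for HLA-DRA the fall was larger with LPS (interaction -0.34). Of the 18 members, 2 had a called positive and 2 a called negative interaction, against 6.42% and 5.57% of all genes.

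The fall of class II genes went with that of dendritic cell markers. CD1E and CD1C, which present lipids, fell from 47.8 and 44.2 to 10.3 and 9.85 CPM and from 51 and 52.5 to 25.3 and 23.9 CPM. IRF4, a transcription factor of dendritic cells, fell from 40.8 and 35.9 to 10 and 10.7 CPM. Of 24 tested CD1 and dendritic maturation genes, 13 fell, 1 rose (ICOSLG, not called with the GC offset) and 10 were not called, and with the GC offset 14 fell and 1 rose. Co-stimulatory genes were mixed: CD83 fell by 0.49 ± 0.06 and the ligand CD274 by 0.46 ± 0.06, while CD86 (-0.12 ± 0.06) and CD40 (0.04 ± 0.06) were not called. Of 10 tested dendritic cell markers 6 fell and none rose by edgeR (1 at an unadjusted p under 0.05, 0 by DESeq2). With the GC offset 6 fell and 0 rose. Their summed level over the 11 in the table, of which LAMP3 gave more than any other in WT LPS, was 706 and 683 CPM in WT LPS and 216 and 235 CPM in KO LPS. CLEC9A stood at 0.0665 to 0.58 CPM and FCER1A at 1.44 to 2.97 CPM in the 4 libraries. CLEC10A stood at 73 and 66.4 CPM in WT LPS and at 62.9 and 66.4 CPM in KO LPS. The fall of these markers was present without LPS too, with a median of -1.1. There 8 of the 10 tested were lower and 0 higher, against 11.4% and 10.2% of all genes. The summed level without LPS was 517 to 542 CPM in WT and 183 to 187 CPM in KO. In RNA of whole cultures, fewer cells of a type and less RNA per cell cannot be told apart, and the part of such cells in the fall of class II genes was not tested.

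Chemokines rose more often than they fell. Of 12 tested CXC and CX3C chemokines 10 rose and none fell (0 also at an unadjusted p under 0.05 and by DESeq2), with a median of 1.16 in edgeR's fit, and with the GC offset 10 rose and 1 fell. CXCL5, a neutrophil attractant, rose from 88 and 89.1 to 185 and 162 CPM, CXCL2 from 112 and 100 to 199 and 249 CPM, and CXCL1 from 993 and 847 to 1290 and 1440 CPM. CXCL8, the most abundant of them, rose by 0.26 ± 0.07, from 6870 and 7050 to 8720 and 7940 CPM, a call lost in 3 of 18 alternatives. CXCL10, an interferon-induced T cell attractant, stood at 10.9 and 10.7 against 36.2 and 35.9 CPM (1.74 ± 0.39, edgeR adjusted p = 0.0117), a call also lost in 3 of 18 alternatives (adjusted p up to 0.0878), DESeq2 among them.

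Of 17 tested CC chemokines 9 rose and 3 fell, and with the GC offset 10 and 5. CCL7 rose from 12.7 and 12.2 to 93.6 and 78.8 CPM, CCL8 from 37.1 and 34.8 to 171 and 144 CPM, and CCL2 from 1530 and 1400 to 2690 and 2600 CPM (0.85 ± 0.07). Without LPS the CCL2 levels were 59.3 to 72.1 CPM in WT and 404 to 415 CPM in KO, so its genotype difference was smaller with LPS (interaction -1.76 ± 0.09). The falls were CCL22, a ligand of CCR4, from 321 and 309 to 214 and 202 CPM, and the low CCL18 and CCL15, at 2.38 to 3.46 CPM in WT LPS and 0.451 to 0.645 CPM in KO LPS. CCL4 (945 and 806 against 849 and 851 CPM) and CCL5 (204 and 181 against 171 and 183 CPM) overlapped between the groups and were not called, although CCL5 was called lower with the GC offset.

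Cytokines of the inflammatory response were unequal. Of 24 tested pro-inflammatory cytokines, 13 rose, 1 fell and 10 were not called, with a median of 0.45. The fit with the GC offset called 14 higher and 2 lower. Leaving out WT LPS replicate 2 gave 8 rises and leaving out KO LPS replicate 2 gave 10. IL6 rose from 156 and 135 to 257 and 247 CPM, 1.73-fold, and LIF, of the same family, from 25.7 and 22.4 to 42.2 and 46.7 CPM. TNF stood at 37.2 and 30.6 against 44.1 and 48.7 CPM (0.45 ± 0.12), a call lost in 3 of 18 alternatives, and the T cell co-stimulator TNFSF15 rose from 98.8 and 105 to 170 and 159 CPM. IL1B did not pass the test, at 4850 and 4570 CPM in WT LPS and 4690 and 4610 CPM in KO LPS (-0.02 ± 0.06). EBI3, a subunit of IL-27 and IL-35, fell from 195 and 164 to 103 and 138 CPM. The anti-inflammatory cytokine IL10 fell from 67.6 and 62 to 44.8 and 42.4 CPM (-0.57 ± 0.10), while without LPS it was 7.72 to 8.97 CPM in WT and 9.95 to 13.7 CPM in KO (interaction -1.05 ± 0.15).

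Receptors and signalling genes of the LPS pathway gave no common direction. Of 28 tested, 8 rose and 7 fell, and with the GC offset 6 and 7. Without WT LPS replicate 2, 3 rose, and without KO LPS replicate 2, 4 rose. TLR8, a receptor of single-stranded RNA, fell from 1140 and 1270 to 552 and 517 CPM (-1.17 ± 0.06), against 157 to 171 CPM in WT and 139 to 146 CPM in KO without LPS. TLR7 fell from 133 and 162 to 92.5 and 78.7 CPM, and CD180, a TLR4-like regulator, from 39 and 41.2 to 13.5 and 8.89 CPM. The adaptor MYD88 rose from 190 and 175 to 248 and 253 CPM. Among 27 NF-kB subunits and feedback genes 5 fell and 2 rose, and with the GC offset 10 fell and 1 rose. The share called without the offset, 25.9%, was near the 30.6% of all genes tested. The number that rose was 0 without either replicate numbered 2, 4 without WT LPS replicate 1 and 7 without KO LPS replicate 1, and 8 fell without WT LPS replicate 1. NFKB1, the p105/p50 subunit, fell from 449 and 421 to 302 and 288 CPM (-0.56 ± 0.06). NFKB2 was called higher without the GC offset (0.31 ± 0.09) and not called with it (-0.08, edgeR adjusted p = 0.193), so no direction is given for it. Of the inflammasome genes, CASP1 fell from 330 and 348 to 249 and 236 CPM, and the sensor NLRP1 rose from 26.1 and 25.1 to 45.2 and 45.4 CPM.

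Most markers of monocytes and border macrophages, scavenger receptors among them, rose. Of 18 tested markers 12 rose and 2 fell (1 without either replicate numbered 2), and with the GC offset 13 and 2. The summed level of the 18 was 4920 and 4830 CPM in WT LPS and 6740 and 6930 CPM in KO LPS, and it was also higher without LPS, at 4520 to 4700 CPM in WT and 6570 to 6640 CPM in KO. MARCO, a scavenger receptor for bacteria, rose from 33 and 28 to 120 and 132 CPM (2.05 ± 0.09), and MRC1, the mannose receptor, from 280 and 309 to 677 and 597 CPM. CD163, the haemoglobin scavenger receptor, rose from 915 and 969 to 1310 and 1220 CPM. CCR2, the receptor of CCL2, fell from 59.3 and 65.1 to 32.5 and 27.8 CPM, and S100A8 (141 and 168 against 178 and 162 CPM) was not called. Without LPS 15 of the 18 markers were higher and 1 lower, against 10.2% and 11.4% of all genes. Their median was 0.84 without LPS and 0.48 with it. The interaction was called negative for 8 and positive for 3, also with the GC offset, against 5.57% and 6.42% of all genes. Whether more such cells or more of these RNAs per cell gave these values cannot be told apart.

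Of 36 tested phagocytosis and lysosome genes, 20 rose and 3 fell, with a median of 0.27. With the GC offset 19 rose and 1 fell, and 16 rose in both fits. The efferocytosis receptor MERTK rose from 35.6 and 37.5 to 69.3 and 62.7 CPM and the cathepsin CTSL from 352 and 317 to 573 and 587 CPM. TREM2, a lipid-sensing receptor of microglia, rose from 116 and 97.2 to 166 and 191 CPM (0.75 ± 0.08), and its difference was larger than without LPS (interaction 0.51 ± 0.10). The falls of CD36 and LAMP2 were not called with the GC offset, and the number that fell was 0 without KO LPS replicate 2 and 1 without WT LPS replicate 2.

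Genes of microglial identity moved both ways. Of 28 tested homeostatic genes, 11 rose and 7 fell, and with the GC offset 12 and 9, with 10 and 6 called in both fits. ITGAM (CD11b) rose from 337 and 326 to 596 and 610 CPM and GPR183, an oxysterol receptor, fell from 257 and 280 to 111 and 106 CPM. CSF1R, the receptor for the survival factors of microglia, fell by 0.23 ± 0.05 (2050 and 1950 against 1650 and 1740 CPM), and was not called with the 4 LPS libraries alone (edgeR adjusted p = 0.0524). CX3CR1 fell by 0.21 ± 0.07, not called with the GC offset, and P2RY12 was low in all 4 libraries, at 1.69 to 1.93 CPM. Of 24 disease-associated microglial genes 14 rose and 7 fell, and with the GC offset 13 and 7. SPP1 (osteopontin) rose from 8400 and 7850 to 15900 and 14900 CPM, 1.89-fold, and ITGAX from 160 and 153 to 248 and 282 CPM, while CST7, an inhibitor of cysteine proteases, fell from 19.3 and 16.5 to 6 and 6.43 CPM.

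Genes of mitosis fell together by small amounts. Of 36 tested G2/M genes 29 fell, none rose (0 also at an unadjusted p under 0.05 and by DESeq2) and 7 were not called, with a median of -0.42 in edgeR's fit. With the GC offset 28 fell, 26 of them the same genes, and the median was -0.30. Their median GC content was 42.9%, below the 48.2% of all genes tested. TOP2A, the topoisomerase that untangles chromosomes, fell from 246 and 300 to 196 and 171 CPM, 1.49-fold, HMMR from 41.4 and 43.6 to 27.7 and 27.6 CPM, and CDK1 from 122 and 133 to 98 and 90.4 CPM. The fall was as wide without LPS, where 32 of 36 were lower, against 11.4% of all genes, with a median of -0.39. No interaction was called by edgeR among the 36, against 12% of all genes (3 had an unadjusted p under 0.05, and 2 were called with the GC offset). Without LPS 17 of 38 tested G1/S and DNA replication genes were lower and 0 higher, with a median of -0.20 (11.4% and 10.2% of all genes). Their interaction was called positive for 11 and negative for 0 (6 and 0 with the GC offset), against 6.42% and 5.57% of all genes. With LPS the G1/S genes did not share the fall of the mitotic genes. There 4 of 38 rose, 3 fell and 31 were not called, with a median of 0.04. With the GC offset 4 rose and 5 fell. The share called without the offset, 18.4%, was below the 30.6% of all genes tested. Without WT LPS replicate 2 or without KO LPS replicate 2, 2 rose and 1 fell, and without KO LPS replicate 1, 6 fell. CDK2, the kinase that the compound of the other group is described as inhibiting, stood at 21.6 and 24.8 against 20.3 and 17.1 CPM (-0.31 ± 0.12, edgeR adjusted p = 0.0539) and was called lower in 8 of 18 alternatives. CDKN1A, its inhibitor p21, was not called (0.14 ± 0.07, and -0.08 with the GC offset), and CCND1, cyclin D1, rose from 67.8 and 66.5 to 131 and 149 CPM.

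Promoters were available for 24 of the 29 mitotic genes that fell. The cell cycle homology region, searched on both strands as TTTGAA, was found in 16 of the 24 (66.7%) and in 9.98% of the promoters of all genes tested, and the CCAAT box, searched on both strands as CCAAT, in 17 (70.8%) and 36.3%. Both motifs are known parts of mitotic promoters, and these shares too describe the list. The 250 bases before the start of 2 members follow, 5′ to 3′ on the strand of the gene. Capitals mark CCAAT boxes (on the opposite strand, ATTGG) in TOP2A, at chr17:40417897-40418146 on the minus strand, and the TTTGAA match in CDK1, at chr10:60778081-60778330 on the plus strand.
TOP2A: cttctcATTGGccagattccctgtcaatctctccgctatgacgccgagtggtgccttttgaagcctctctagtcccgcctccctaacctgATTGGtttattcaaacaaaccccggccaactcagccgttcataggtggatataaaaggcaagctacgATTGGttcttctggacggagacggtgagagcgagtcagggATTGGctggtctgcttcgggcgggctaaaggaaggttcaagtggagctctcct
CDK1: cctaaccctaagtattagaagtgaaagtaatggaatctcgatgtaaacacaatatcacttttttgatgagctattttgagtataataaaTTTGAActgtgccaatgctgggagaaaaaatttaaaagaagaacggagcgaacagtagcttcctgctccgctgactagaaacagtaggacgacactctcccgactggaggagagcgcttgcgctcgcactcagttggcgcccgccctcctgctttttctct
TOP2A holds 4 CCAAT boxes, the nearest starting 53 bases before the start, and the match in CDK1 starts 161 bases before the start. The MEF2 consensus, searched on both strands of the same 300-base promoters, was found in 1.5% of promoters of genes that rose in both fits, in 1.96% of those that fell in both, and in 1.49% of those of all genes tested. Sites outside these windows were not searched.

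ASNS, asparagine synthetase, fell from 53.8 and 54.4 to 20.8 and 22.6 CPM (-1.32 ± 0.10), and PSAT1, of serine synthesis, from 90.5 and 87.5 to 38.2 and 35.9 CPM (-1.26 ± 0.08). Both are known targets of ATF4, and SLC7A11, the cystine transporter, fell from 395 and 459 to 278 and 260 CPM. Of 28 integrated stress and unfolded protein response genes 10 fell and 1 rose, and with the GC offset 13 fell and 1 rose. Without WT LPS replicate 1, 2 rose, and without KO LPS replicate 1, 7 rose. The riser in the full fit was the pseudokinase TRIB3 (7.04 and 5.19 against 11.6 and 11.8 CPM). Of 16 tested enzymes of itaconate, kynurenine and nitric oxide metabolism 7 fell and 2 rose, and with the GC offset 6 and 2. Leaving out WT LPS replicate 1, or either replicate numbered 2, gave 1 rise. ASS1, argininosuccinate synthase, fell from 89.8 and 81.2 to 43.2 and 45 CPM. For ASNS and PSAT1 the difference was more negative than without LPS (interactions -0.94 ± 0.14 and -0.87 ± 0.10).

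**Figure D4:**
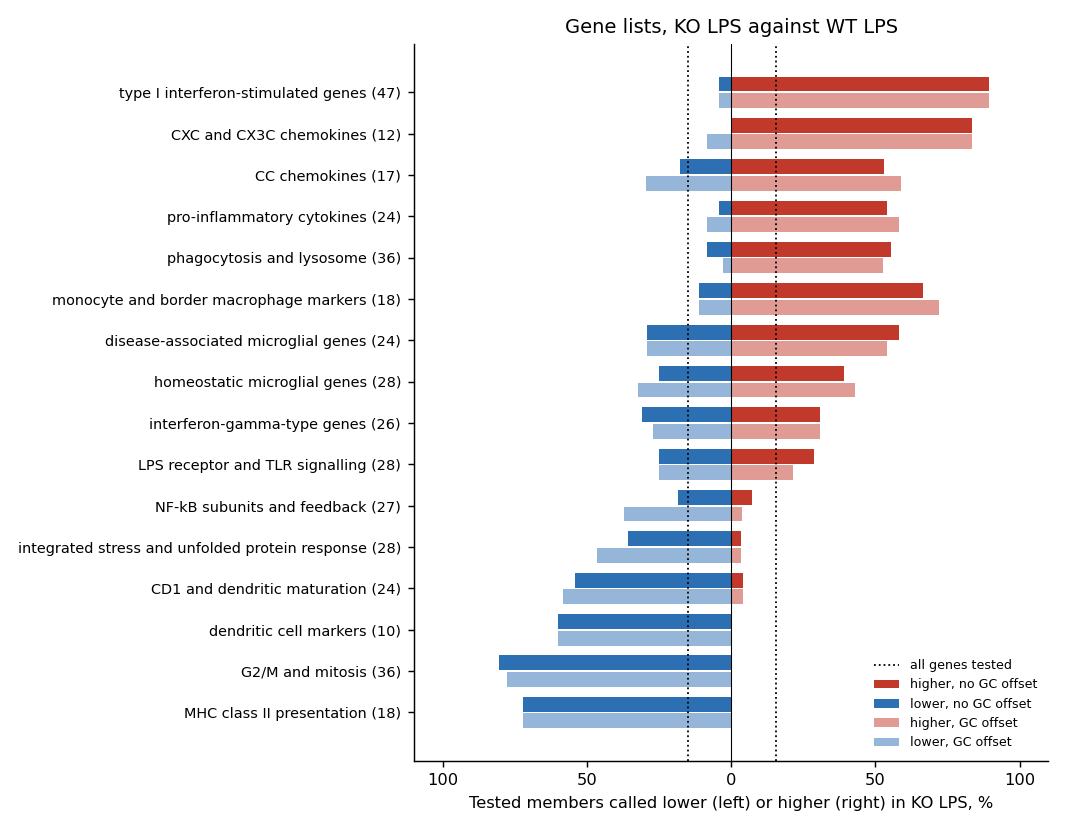
Percent of the tested members of 16 gene lists called lower (left, blue) or higher (right, red) in KO LPS than in WT LPS, in dark bars without and in pale bars with the GC offset, with the number tested in parentheses and dotted lines at the 15% lower and 15.6% higher of all genes tested. Type I interferon-stimulated genes reach 42 of 47 on the right, and G2/M and MHC class II genes reach 29 of 36 and 13 of 18 on the left.

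The genotype difference with LPS was set beside that without LPS, which uses other libraries. Without LPS 3463 genes (21.6%) were called. Called in both were 1986 genes, 40.5% of the calls with LPS and 57.3% of those without, and 1817 of them had the same direction. With the GC offset 4479 genes (28%) were called without LPS, and 2378 in both, 53.4% of the calls with LPS and 53.1% of those without, 2152 of them in the same direction. The log2 fold changes correlated with r = 0.48 across the 16022 genes. The interaction, which tests whether the genotype difference changed with LPS, was called for 1920 genes (12%), 1028 positive (53.5%) and 892 negative, and with the GC offset for 2047, of which 1344 were called in both fits with the same sign. Of the 2914 genes called with LPS and not without, 1027 had a called interaction, so for the other 1887 the difference was not shown to depend on LPS. The positive share was 43.5% with DESeq2's size factors and 65.3% with library sizes alone. The number of called interactions was 1162 without KO LPS replicate 2, 1212 without WT LPS replicate 2 and 3079 without KO LPS replicate 1.

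The difference had opposite directions with and without LPS in 169 called genes, 81 higher with LPS and lower without, and 88 the reverse. The interaction was called for all 169, which the choice of genes called in opposite directions all but fixed. Opposite directions were called for 226 genes with the GC offset. JAG1, a Notch ligand, stood at 27.3 and 28.8 CPM in WT LPS and 58.9 and 54.1 CPM in KO LPS, but at 85 to 93.3 CPM in WT and 55.1 to 62.4 CPM in KO without LPS (interaction 1.61 ± 0.11). PLS3, an actin-bundling protein, stood at 41.8 and 46.5 against 20.9 and 20 CPM with LPS and at 6.38 to 8.21 against 11.5 to 14.1 CPM without it (interaction -1.92 ± 0.16). LPL, lipoprotein lipase, was 1280 and 1330 against 1050 and 1010 CPM with LPS and 222 to 246 against 347 to 349 CPM without it. SLC16A7, a monocarboxylate transporter, fell with LPS from 22.1 and 25.8 to 13.9 and 11.6 CPM and rose without it from 1.34 to 2 CPM to 3.75 to 5.16 CPM. In these 4 genes neither pair of groups overlapped. For JAG1, PLS3 and SLC16A7 no overlap with LPS was a condition of being named.

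Other genes differed mainly with LPS or mainly without it. GJA1, a gap junction protein, stood at 251 and 257 CPM in WT LPS and 71.3 and 74.4 CPM in KO LPS (-1.80 ± 0.08), and at 1.88 to 2.68 CPM in all 6 libraries without LPS. GRAMD1B, a cholesterol transfer protein, stood at 3.72 and 3.82 against 16.7 and 14.2 CPM with LPS (2.04 ± 0.15) and at 19.6 to 22.7 against 27.1 to 29.7 CPM without it. FPR2, a receptor for formylated peptides, rose by 0.72 ± 0.07 with LPS, from 104 and 106 to 177 and 169 CPM, and from 4.53 to 5.78 CPM to 23.9 to 27.1 CPM without it (interaction -1.59 ± 0.12). SPP1 likewise had the smaller difference with LPS (interaction -0.91 ± 0.11).

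**Figure D5:**
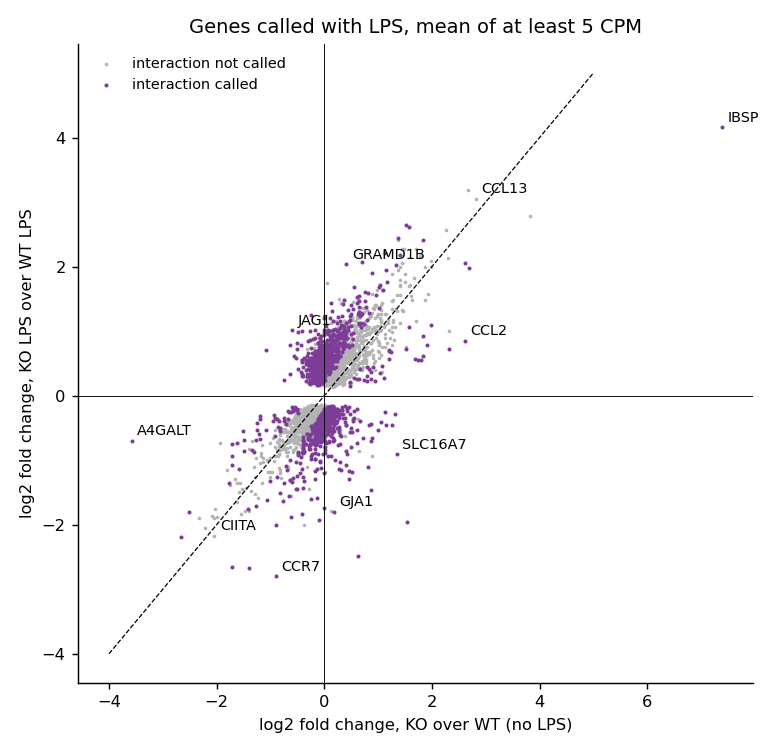
Log2 fold change with LPS (KO LPS over WT LPS, vertical) against that without LPS (KO over WT, horizontal) for genes called with LPS at a mean of at least 5 CPM, in purple where the interaction was called. Points on the dashed line have equal differences, JAG1 and SLC16A7 lie in the quadrants of opposite direction, and CCL2 lies below the line. The horizontal place of IBSP rests on WT libraries at 0 to 0.103 CPM and measures no fold.

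Markers of the labelled cell type were present in all 4 libraries, with CSF1R at 1650 to 2050 CPM and AIF1 at 323 to 425 CPM, whereas P2RY12 was low. Of 9 tested granulocyte and mast cell markers 7 rose and none fell (0 at an unadjusted p under 0.05 and by DESeq2), with a summed level over the 14 in the table of 910 and 885 CPM in WT LPS and 1150 in both KO LPS libraries, and with the GC offset also 7 rose. CLC, the Charcot-Leyden crystal protein, stood at 378 to 466 CPM, the mast cell protease CPA3 at 174 to 212 CPM and the receptor KIT at 15.4 to 20.2 CPM, while the neutrophil protease PRTN3 had no count. The part of such cells in the results was not tested. Of markers of other lineages, NANOG, DPPA4, HBB, PF4, AQP4 and MS4A1 had no count in any of the 4, but others were expressed. Of 4 tested neuron and macroglia markers 3 rose and 0 fell, with and without the GC offset. The sum of the 12 in the table was 62.2 and 58 CPM in WT LPS and 86.1 CPM in both KO LPS libraries. Of 3 tested erythroid and megakaryocytic markers 2 rose and 0 fell in both fits. The sum of the 13 was 21.9 and 20.5 CPM against 33.1 and 38.4 CPM. Over all genes 15.6% rose. Of 10 endothelial markers, the 7 tested gave 5 rises (3 without WT LPS replicate 1 and 3 without KO LPS replicate 1), with a summed level of 227 and 255 CPM in WT LPS and 353 and 315 CPM in KO LPS, nearly all of it PECAM1, which myeloid cells also express. With the GC offset 4 of the 7 tested endothelial markers rose. The sum of 12 mesenchymal markers was 43 to 59.2 CPM, and that of 10 lymphocyte markers 26.3 to 39.2 CPM, most of it NKG7. Mitochondrially encoded transcripts took 1.07% and 1.2% of the counts in WT LPS and 0.918% and 0.861% in KO LPS. Of 13 such transcripts 7 were called lower without the GC offset and 2 with it, and 1 to 4 when 1 LPS library was left out.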

How the data were processed

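RNA was measured by sequencing in 12 libraries of microglia-like cells. The authors deposited raw read counts per Ensembl gene (57992 IDs, 24552 with no count in any library), 1 column per library. The submitters' processing notes name CASAVA 1.7, Cufflinks and GRCh38, and do not state the aligner, counter, strandedness or gene annotation. Without strand, antisense partners cannot be told apart. Positions and GC content were taken from GENCODE v29.

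Counts were tested as deposited with edgeR 4.0.16 in R 4.3.3 (TMM scaling, filterByExpr, robust quasi-likelihood F test, 1 mean per group over the 12 libraries, Benjamini-Hochberg adjustment over 16022 genes). Alternatives were DESeq2 1.42.0, other scalings and filters, each LPS library left out, a replicate block and a GC offset (a lowess of span 0.3 per library). The members and gene lists were chosen with earlier results of these data known. Genes named were MEF2C, the 12 largest rises and falls and the 8 largest interactions each way. The rises, falls and interactions were taken at 5 CPM or more and only where the KO LPS and WT LPS libraries did not overlap. Up to 3 called members per list and direction and a fixed panel were added. Other genes named beside them were chosen after their values were seen. In counts simulated for this comparison over 15775 genes, the test found 52.5% of 59 genes changed 1.5-fold, 66.2% of 65 changed 2-fold and 84.2% of 76 changed 4-fold. Of its 151 calls 8.61% were false. The simulation held no GC trend between the LPS libraries and far fewer changed genes than the 4900 called here, so these shares do not carry over to the data. Some items are not reported here.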

Additional observations from a re-analysis of the deposited data

Results flagged for a closer look

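Of the genes named above, with CLEC10A left out, 66 differed between knockout and unedited cells by another amount with LPS than without it. This is by the interaction test of edgeR (adjusted p under 0.05 over the 16022 genes). Each value is the log2 fold change with LPS minus that without it. The interaction correlated with GC content (r = 0.50 across genes). With the GC offset 62 of the 66 were called with the same sign, and HDAC5 (0.11, edgeR adjusted p = 0.406), TRPV4 (0.28, 0.296), SERPING1 (0.15, 0.372) and CXCL1 (-0.57, 0.0768) were not called.

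The most negative interactions were SLC16A7 -2.25, GJA1 -1.98, PLS3 -1.92, CCR7 -1.90, TNFAIP8L3 -1.83, CCL2 -1.76, FPR2 -1.59, GBP1 -1.47, SLC38A1 -1.27, S100A8 -1.13, ADAM19 -1.12 and IL10 -1.05. These were followed by TLR8 -0.99, ASNS -0.94, LAMP3 -0.93, SPP1 -0.91, LPL -0.90, PSAT1 -0.87, CD36 -0.79, GPR183 -0.68, GBP2 -0.67, CCL22 -0.66, PLSCR1 -0.65 and CXCL1 -0.63. The smallest negative values were CASP1 -0.59, CDKN1A -0.59, CCR2 -0.58, MARCO -0.57, ASS1 -0.53, CD83 -0.51, CCND1 -0.51, CCL5 -0.44, CD163 -0.42, CXCL8 -0.38 and HLA-DRA -0.34.

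Among positive interactions the smallest were CTSL 0.29, CX3CR1 0.30, PECAM1 0.33, MEF2C 0.34, IFI44 0.35, SERPING1 0.35, HDAC5 0.43, MRC1 0.46 and CD1E 0.48. Larger positive values were TREM2 0.51, SLC7A11 0.52, CMPK2 0.54, TRPV4 0.57, NFKB2 0.58, ITGAX 0.58, LIF 0.59, ITGAM 0.62, CD1C 0.64 and OAS1 0.77. The highest values were TNF 0.85, TNFSF15 0.87, HDAC9 0.90, NLRP1 0.92, MX2 1.04, DYSF 1.08, IFIT1 1.12, JAG1 1.61 and GRAMD1B 1.63.

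Interactions of HSD11B1 -3.51, IBSP -3.23 and PRRX1 -3.11 were fitted on libraries without LPS at under 1 CPM in at least 1 genotype, so their size depends on the prior of the fit and is no measure of fold.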

How the results depend on the processing

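The number of genes called between KO LPS and WT LPS, 4900, was 4747 to 5086 under the other scalings and without a filter on low counts, 4453 with DESeq2 and 4450 with the GC offset. It was 2660 with the 4 LPS libraries alone and 3005 to 5549 when 1 LPS library was left out. The number changed at least 2-fold, 900, was 361 among genes with a mean of at least 5 CPM, 526 by a test against a 1.5-fold change, and 627 to 1125 with 1 LPS library left out. Among genes with at least 5 CPM the 2-fold counts without LPS and of the interaction were 211 (590 in all) and 116 (237 in all). Leaving out 1 LPS library gave 1162 to 3079 called interactions and 148 to 464 of at least 2-fold.

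The labels do not say that a replicate number marks a shared culture or day. Deviations of same-numbered libraries from their group means correlated in both directions, from -0.48 (WT LPS with KO LPS) to 0.43 (KO with KO LPS, replicate 2), and the -0.48 was -0.15 after the GC trend was removed, so the number was not used as a pairing. With the replicate number as a block 4454 genes were called, 839 of them changed at least 2-fold, with 1543 interactions and 3091 genes without LPS. With the numbers of the KO LPS libraries crossed, 4651 were called. Block and GC offset together gave 4430.

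Among genes named, with CLEC10A left out, HDAC5, NFKB2, LAMP2 and RFXANK changed sign under a setting with the GC offset. They were called in that fit or in the one without it. MEF2C, RFXAP, CTSS, CD86, IL1B and CDKN1A, called in neither, also changed sign with it. HDAC5 (0.31) was -0.03 with it and with the block, and -0.06, -0.05 and -0.01 with a library left out as well. NFKB2 (0.31) was -0.08 in both, and -0.12, -0.1, -0.06 and -0.04 with a library left out, and LAMP2 (-0.17) was 0 in both, and 0.01 and 0.02 with a library left out. RFXANK (0.16) was -0.29 with the GC offset and without KO LPS replicate 1. The cause was not tested. The LPS libraries' depth limits low genes, and 3 counts correspond to 0.188 to 0.205 CPM.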
